A study of Mus musculus with 24 samples.

Results

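The Wnt family of secreted ligands, the Frizzled receptors that bind them and the main extracellular antagonists were measured in whole lung of wild-type and Marfan mice that had or had not been given sildenafil. The genes were chosen by symbol: all annotated Wnt genes, all Frizzled genes, Sfrp1 to Sfrp5, Dkk1 to Dkk4, and the polarity genes Vangl1 and Vangl2. The array held 39 of them among 19505 genes: 19 Wnt ligands, 10 Frizzled receptors, 4 secreted Frizzled-related proteins (Sfrp1, Sfrp2, Sfrp4 and Sfrp5), 4 Dickkopf proteins and 2 Van Gogh-like proteins. Each of the 39 had 1 probe set.

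Marfan syndrome is an inherited disorder of the connective tissue, and sildenafil inhibits the phosphodiesterase that breaks down cyclic GMP. The lungs came from mice killed at 6 months of age, and the drug was given in drinking water from 6 weeks of age. Each of the 4 groups was planned with 6 samples. Of wild-type mice, 6 vehicle and 4 sildenafil arrays hold values, and of Marfan mice 5 of each treatment. The labels call the second genotype only Marfan and name no allele, sex, litter or batch, and the sentence on drug treatment stands unchanged on the vehicle samples, so vehicle treatment rests on the titles. Arrays are named below by the running number in their titles. Nothing in the labels says that each array came from a separate mouse, so p-values measure only the spread between these samples, which may in part be technical.

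Wnt ligands are lipid-modified glycoproteins that act over short distances. In the branch that works through beta-catenin, a Wnt joins a Frizzled receptor to the co-receptor Lrp5 or Lrp6, the Dishevelled proteins are recruited, the destruction complex of Axin, Apc and glycogen synthase kinase is held in check, and beta-catenin accumulates and acts with TCF/LEF factors in the nucleus. In the planar cell polarity branch, Frizzled, Dishevelled, Celsr, Vangl and Prickle proteins align cells within a tissue. In lung, Wnt2 and Wnt2b of the mesenchyme specify the organ, Wnt7b of the epithelium drives growth of the mesenchyme and of vascular smooth muscle, Wnt5a shapes branching, and Vangl2 is needed for normal airway branching.

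The promoters of 4 genes on which the comparisons below turn are shown first, so that their local sequence can be seen: Vangl2 had the smallest p-value of the 39 genes under sildenafil, Sfrp2 the smallest between genotypes, and Dkk1 the smallest for the difference between the sildenafil effects, while Fzd1 was the gene whose values did not overlap between treatments in Marfan lungs. Each run is the 250 bases before the RefSeq start site in GRCm38.p6, written 5′ to 3′ on the gene's own strand. Capitals mark a TCF/LEF core (CTTTGA or CTTTGT) or a GC box (GGGCGG), either of them on either strand; the marked strings do not overlap.
Vangl2: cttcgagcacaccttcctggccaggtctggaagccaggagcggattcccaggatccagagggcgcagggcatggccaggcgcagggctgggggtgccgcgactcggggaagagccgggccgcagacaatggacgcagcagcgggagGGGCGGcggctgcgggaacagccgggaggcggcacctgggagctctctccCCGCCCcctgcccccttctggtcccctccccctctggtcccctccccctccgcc
Sfrp2: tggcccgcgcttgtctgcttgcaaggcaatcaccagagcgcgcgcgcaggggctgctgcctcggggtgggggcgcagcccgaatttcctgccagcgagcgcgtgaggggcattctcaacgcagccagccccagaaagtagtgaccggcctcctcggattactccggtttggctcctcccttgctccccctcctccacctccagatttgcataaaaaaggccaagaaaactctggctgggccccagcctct
Fzd1: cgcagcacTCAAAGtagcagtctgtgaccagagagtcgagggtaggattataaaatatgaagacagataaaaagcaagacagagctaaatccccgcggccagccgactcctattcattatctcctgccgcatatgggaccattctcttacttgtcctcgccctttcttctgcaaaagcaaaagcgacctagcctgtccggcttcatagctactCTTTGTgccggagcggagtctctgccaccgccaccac
Dkk1: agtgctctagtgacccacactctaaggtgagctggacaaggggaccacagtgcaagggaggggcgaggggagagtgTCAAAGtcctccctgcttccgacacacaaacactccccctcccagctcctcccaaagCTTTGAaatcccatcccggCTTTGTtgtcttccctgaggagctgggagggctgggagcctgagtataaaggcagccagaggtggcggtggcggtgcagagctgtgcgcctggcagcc

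The Vangl2 window lies at chr1:172027296-172027545 on the minus strand and holds 2 GC boxes, 1 on each strand, and no TCF/LEF core. Sfrp2 lies at chr3:83766071-83766320 on the plus strand and holds neither string. Fzd1 lies at chr5:4758217-4758466 on the minus strand and holds 2 TCF/LEF cores, whose first bases are 242 and 37 bases before the start. Dkk1, which is widely described as a target of beta-catenin that feeds back on the pathway, lies at chr19:30549497-30549746 on the minus strand and holds 3 cores, at 174, 117 and 98 bases before the start. RefSeq promoters were at hand for 26 of the 39 genes in 29 windows; 13 genes, among them Dkk3, Sfrp1 and Wnt7b, had none. A TCF/LEF core stood in 7 of the 29 windows (24.1%) against 27.6% of all 32851 windows of this length, and the cyclic AMP response element half-site TGACG in 4 (13.8%) against 17.8%. A GC box stood in 21 (72.4%) against 32.7% of all windows, and the median GC content was 70.8% against 52.4%. A match is a string of letters and not a measured binding site.

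All values are log2 signals that the authors summarised from the probes, quantile-normalized here over the 20 arrays. A difference of 1 is therefore a doubling of signal. The lung label held: Sftpc of alveolar type 2 cells ranged from 13.0 to 13.2, Ager of type 1 cells from 11.5 to 12.4, Pecam1 of endothelium from 9.78 to 11.1 and Tcf21 of mesenchyme from 6.93 to 9.29. Before normalization the array medians ran from 5.32 to 6.45, and the wild-type vehicle arrays were the dimmest (mean of medians 5.66 ± 0.19, SD, n = 6) against 6.05 ± 0.14 (n = 4) in wild-type sildenafil, 6.03 ± 0.13 (n = 5) in Marfan vehicle and 6.06 ± 0.28 (n = 5) in Marfan sildenafil. Array brightness and group therefore overlap. Differences of single genes at an unadjusted p under 0.05 that move by over 1.5 times with brightness as a covariate are given with that value beside them. Y-linked genes were near background on arrays 13 and 14 (wild-type vehicle), 5 (wild-type sildenafil), 20 and 21 (Marfan vehicle) and 8 (Marfan sildenafil), so every group mixed both kinds of array.

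Marfan sildenafil array 9 stood apart from all others. It lay at 73.8 on the first principal component of all genes, which held 18.3% of the variance, against -9.04 to 9.11 for the other 19. On that array 17 of the 39 genes fell outside the range of the other 19 arrays, against 0 to 8 on any other array; of all genes 26.2% did so there, against 5.57% to 20.0% elsewhere. The 8 genes above the range were Sfrp1 (2.41 above the median of the others), Sfrp5 (1.66), Wnt7b (1.33), Wnt4 (0.97), Fzd7 (0.85), Wnt10a (0.54), Dkk1 (0.53) and Wnt9b (0.51). The 9 below it were Wnt3a (-1.03), Fzd2 (-0.91), Wnt11 (-0.88), Fzd3 (-0.85), Fzd4 (-0.83), Sfrp4 (-0.82), Wnt2 (-0.76), Wnt10b (-0.74) and Wnt8b (-0.33).

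The cell type markers of array 9 were also displaced. The mean of 10 endothelial markers was 9.02 against 9.87 to 10.3 on the others, and that of 13 fibroblast markers 7.79 against 8.02 to 8.49. That of 8 smooth muscle markers was 7.37 against 7.79 to 8.63 and that of 8 cardiac muscle markers 5.65 against 8.04 to 8.90. Alveolar type 1 markers averaged 9.89 against 10.3 to 10.7, and ciliated airway markers 7.61 against 7.92 to 8.46. The means of alveolar type 2, club, mesothelial and adipose markers lay within the range of the others. Basal and squamous epithelial markers (Krt5, Krt14, Trp63, Krt15, Krt13 and Krt4) averaged 5.89 against 3.66 to 4.20, with 5 of 6 above the median of the others, and 8 alveolar macrophage markers 9.12 against 7.66 to 8.39. Whole-lung RNA cannot tell fewer cells of a type from less RNA per cell. Differences of single genes at an unadjusted p under 0.05 that move by over 1.5 times without this array are given below with and without it. Other differences are mostly given only with it, and small ones can move more, even in sign.

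**Figure D1:**
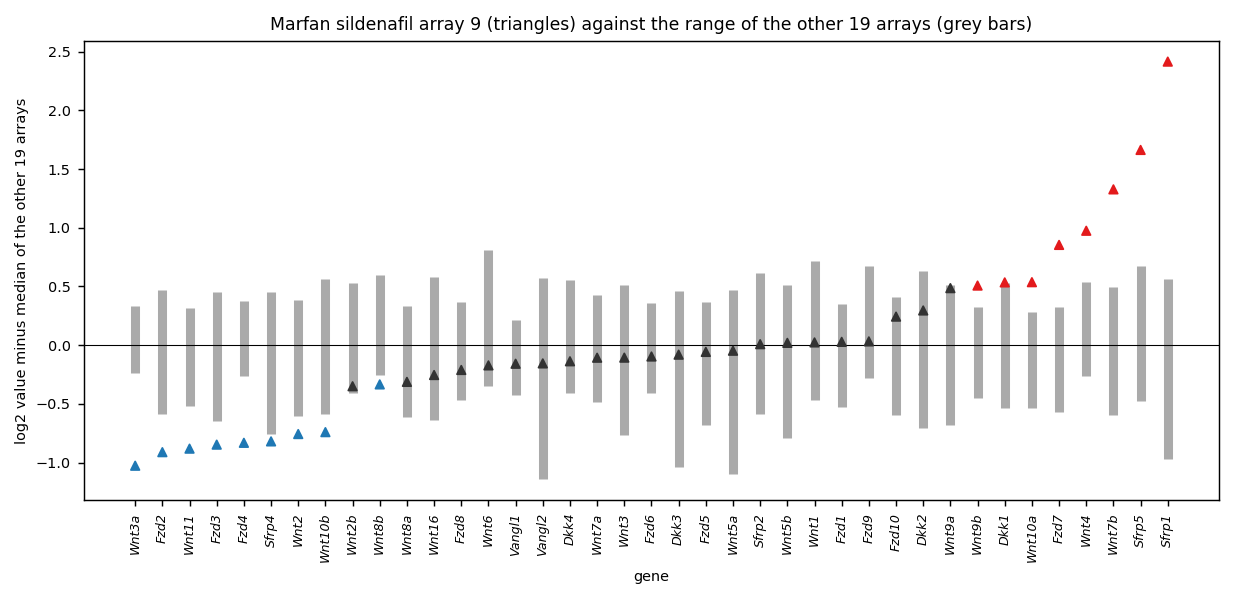
Log2 value of each of the 39 genes on Marfan sildenafil array 9 (triangles), drawn against the median of the other 19 arrays (line at 0) and their lowest to highest value (grey bars). Red triangles are the 8 genes above the range of the other arrays, led by Sfrp1 at 2.41, blue triangles the 9 below it, led by Wnt3a at -1.03, and black triangles lie within it.

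Of the 10 Frizzled receptors 7 lay in the brighter 50% of all genes, and of the 19 Wnt ligands 1 did. In all, 12 of the 39 probe sets did: Wnt2, Fzd1, Fzd2, Fzd4, Fzd5, Fzd6, Fzd7, Fzd8, Sfrp1, Sfrp2, Dkk3 and Vangl1. Only 8 (Fzd1, Fzd2, Fzd4, Fzd6, Fzd7, Sfrp2, Dkk3 and Vangl1) exceeded the highest of 23 background control probe sets on all 20 arrays, which 40.5% of all genes did. Another 17 exceeded it on no array. They were the ligands Wnt1, Wnt3, Wnt5a, Wnt5b, Wnt6, Wnt8a, Wnt8b, Wnt9b, Wnt10a and Wnt16, with Fzd9, Fzd10, Sfrp4, Sfrp5, Dkk1, Dkk2 and Dkk4. A further 14 exceeded it on some arrays, among them Fzd5 and Fzd8 on 19, Sfrp1 on 16 and Wnt2 on 15. Wnt11 did so on 13, Wnt3a on 11, Vangl2 on 2 and Wnt7b on 1. Above the median of the background probe sets lay 34 on all arrays; Wnt1 (8 arrays), Wnt8b (16), Wnt6 and Dkk4 (18 each) and Wnt3 (19) did not. Probes differ in affinity, so these counts say which genes had a measurable signal and not how much of one transcript there is beside another.

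The brightest of the probe sets belonged to Fzd4, Dkk3, Fzd6, Vangl1, Fzd2 and Fzd1. Fzd4, the receptor for Norrin and a regulator of vessel growth and barrier, averaged 8.72 ± 0.11 (SD) in wild-type vehicle, 9.08 ± 0.11 in wild-type sildenafil, 8.78 ± 0.19 in Marfan vehicle and 8.74 ± 0.43 in Marfan sildenafil. Fzd6, a receptor used mainly in cell polarity, averaged 7.64 ± 0.26, 7.83 ± 0.19, 7.71 ± 0.19 and 7.78 ± 0.18 in the same order. Vangl1, a membrane protein of the polarity branch, averaged 7.50 ± 0.18, 7.60 ± 0.04, 7.49 ± 0.20 and 7.53 ± 0.10. Replicates of a group differed by a median SD of 0.29 over the 39 genes, from 0.15 for Vangl1 to 0.56 for Sfrp1, close to the 0.26 of all genes.

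No member of the family differed past the threshold of an adjusted p of 0.05 in any of the 7 comparisons (limma, adjusted over all 19505 genes), and no gene of the whole array did. What follows are therefore differences with their errors that did not pass, and counts at an unadjusted p under 0.05 read against the share of all genes at that mark. Between genotypes under vehicle 3 of 39 genes (7.69%) were at that mark, against 6.26% of all genes; under sildenafil 5 (12.8%) against 3.89%. For sildenafil against vehicle there were 5 (12.8%) in wild-type lungs against 9.1% of all genes, and 6 (15.4%) in Marfan lungs against 6.71%. The difference between the sildenafil effects of the genotypes (the interaction) had 2 (5.13%) against 4.47%, the genotype difference averaged over treatments 4 (10.3%) against 5.35%, and the sildenafil difference averaged over genotypes 8 (20.5%) against 10.9%. Without array 9 the counts were 4 (10.3%) against 7.81% of all genes for genotype under vehicle, 4 (10.3%) against 3.22% under sildenafil, 6 (15.4%) against 11.1% for sildenafil in wild-type and 2 (5.13%) against 6.87% in Marfan lungs. The interaction then had 2 (5.13%) against 4.33%, averaged genotype 4 (10.3%) against 5.13% and averaged sildenafil 6 (15.4%) against 13% of all genes. For sildenafil against vehicle in Marfan lungs the share among the 39 genes was above that of all genes with array 9 and below it without. With brightness as a covariate 0 of the 39 were at that mark for genotype under vehicle and 5 under sildenafil. For sildenafil there were then 2 in wild-type and 7 in Marfan lungs. In the same order 1410, 850, 1076 and 1426 of all 19505 genes were at that mark. Comparisons that share a group share its arrays, so these counts are not independent of each other.

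**Figure D2:**
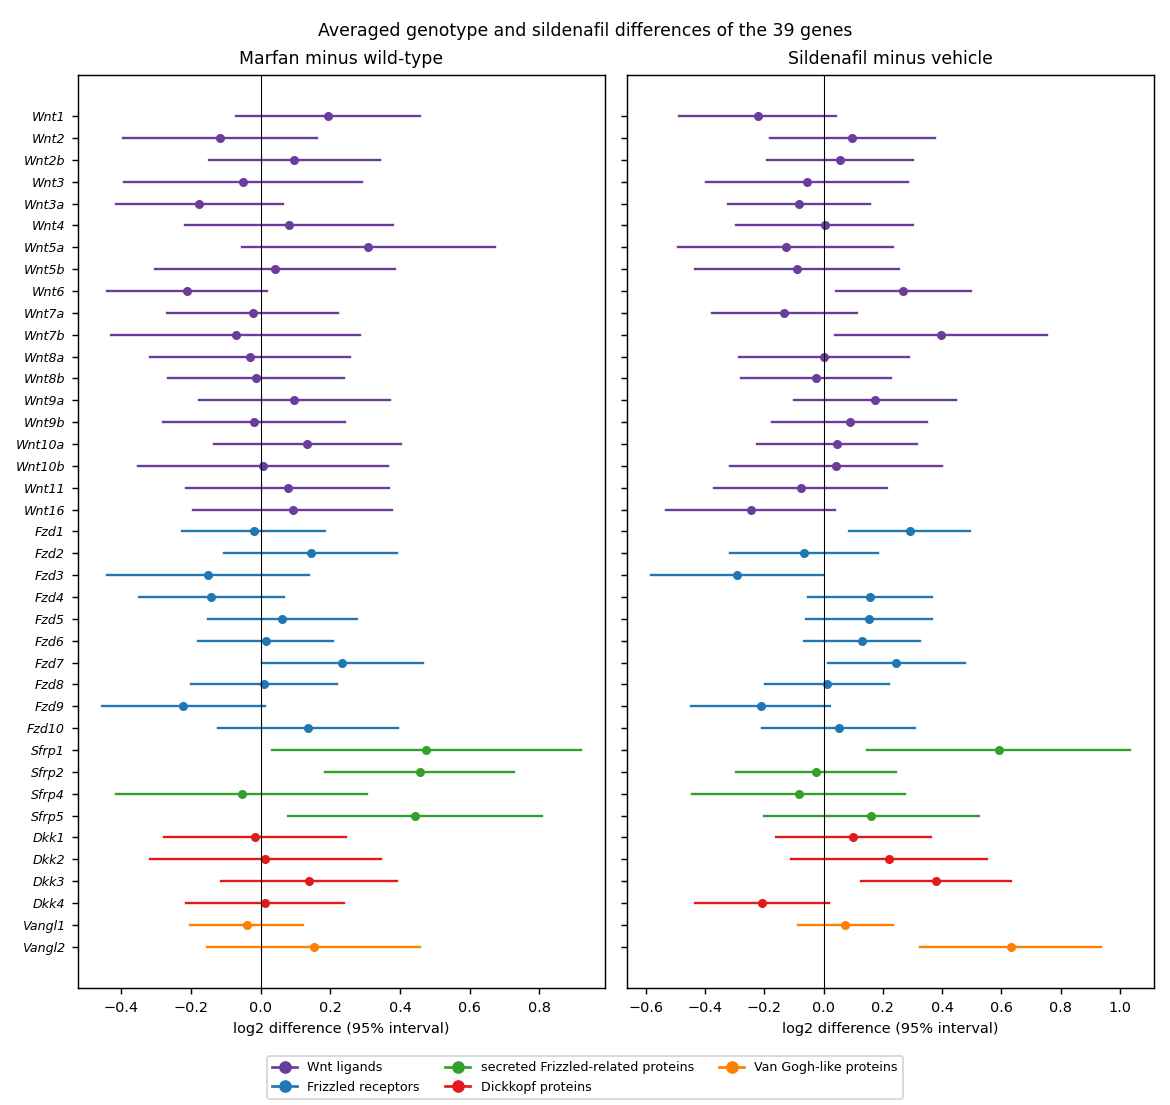
Log2 difference of each of the 39 genes between Marfan and wild-type lungs averaged over treatments (left) and between sildenafil and vehicle averaged over genotypes (right), with 95% intervals from the fit across all genes; colours mark the roles. The intervals of Sfrp1, Sfrp2, Sfrp5 and Fzd7 exclude 0 on the left and those of 8 genes, with Vangl2 at 0.63, on the right, but no adjusted p passed 0.05.

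Among the ligands, most of the 19 Wnt genes reached an unadjusted p under 0.05 in no comparison. Many of them lay near background, so this does not show that their levels were equal. Wnt2, the ligand that marks lung mesenchyme, was the only Wnt in the brighter 50% and averaged 6.02 ± 0.34 in wild-type vehicle, 6.32 ± 0.06 in wild-type sildenafil, 6.10 ± 0.25 in Marfan vehicle and 6.00 ± 0.43 in Marfan sildenafil. Its averaged differences were -0.12 for genotype (95% interval -0.40 to 0.16) and 0.10 for sildenafil (-0.18 to 0.38). Wnt4 and Wnt11, both ligands of the branch that bypasses beta-catenin in most settings, had averaged sildenafil differences of 0.00 (-0.29 to 0.30) and -0.08 (-0.37 to 0.21). The other ligands that reached an unadjusted p under 0.05 in no comparison (Wnt1, Wnt2b, Wnt3, Wnt5b, Wnt7a, Wnt8a, Wnt8b, Wnt9a, Wnt9b, Wnt10a and Wnt10b) had smaller differences than the -0.40 of Wnt2 in the interaction.

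Wnt5a, the ligand of branching and of planar polarity, spread widely and exceeded the highest background probe set on no array. It read 4.63, 3.83, 5.13 and 4.00 on the wild-type sildenafil arrays (1, 4, 5 and 6) and 5.01, 4.88, 5.27, 4.73 and 5.11 on the Marfan sildenafil arrays (8 to 12). In vehicle it ran from 4.00 to 5.40 (median 4.95) in wild-type and read 5.03, 4.75, 5.30, 4.54 and 4.56 in Marfan (20 to 24). All Marfan sildenafil arrays lay above 3 of the 4 wild-type sildenafil arrays, and only array 10 also lay above array 5, so the groups overlap. The Marfan minus wild-type difference under sildenafil was 0.60 ± 0.26 (SE; limma adjusted p = 1.00), and it ranged from 0.41 without array 4 to 0.84 without array 5.

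Wnt7b, the epithelial ligand, read 5.06, 5.17, 4.84 and 5.01 in wild-type sildenafil and from 4.11 to 5.20 (median 4.65) in wild-type vehicle. In Marfan lungs it read 4.30, 4.69, 5.00, 4.59 and 4.18 with vehicle and 5.03, 6.03, 4.84, 4.67 and 4.54 with sildenafil, where the highest value is array 9. The groups overlap in both genotypes. The averaged sildenafil difference was 0.40 ± 0.17 (limma adjusted p = 0.397) and 0.27 ± 0.15 without array 9.

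Wnt3a, the ligand most often used to activate beta-catenin, was tightly grouped in wild-type vehicle, from 5.55 to 5.75 (median 5.61). It read 5.99, 5.97, 5.66 and 5.70 in wild-type sildenafil, 5.90, 5.62, 5.88, 5.73 and 5.56 in Marfan vehicle, and 5.42, 4.63, 5.59, 5.50 and 5.68 in Marfan sildenafil, with array 9 lowest. The sildenafil difference had opposite signs in the genotypes: 0.21 in wild-type and -0.37 ± 0.16 in Marfan lungs, an interaction of -0.58 ± 0.23 (limma adjusted p = 0.984). The wild-type difference was not at an unadjusted p under 0.05. With brightness as a covariate the Marfan difference was -0.39 and the interaction -0.41, which leaves little difference in wild-type. Without array 9 the Marfan difference was -0.19 ± 0.14 and the interaction -0.40 ± 0.19. Under sildenafil, Marfan minus wild-type was -0.47 ± 0.17 with the array and -0.28 ± 0.15 without it.

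Wnt6, a ligand of epithelia, exceeded the highest background probe set on no array. It read 3.24, 4.05, 3.77 and 3.43 in wild-type sildenafil, against 2.90 to 3.38 (median 3.17) in wild-type vehicle; 3 of the 4 treated arrays lay above all vehicle arrays. In Marfan lungs it read 2.98, 3.29, 2.90, 3.28 and 3.26 with vehicle and 3.24, 3.07, 3.08, 3.37 and 3.21 with sildenafil, ranges that overlap. The sildenafil difference in wild-type was 0.49 ± 0.16 (limma adjusted p = 0.380; 0.35 without array 4), and Marfan minus wild-type under sildenafil was -0.43 ± 0.16 (adjusted p = 1.00; -0.29 without array 4). Wnt16, a ligand known from bone and skin, averaged 3.94 ± 0.32 in wild-type vehicle and 3.51 ± 0.32 in wild-type sildenafil, a difference of -0.43 ± 0.20 that did not pass (adjusted p = 0.522).

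Of the receptors, all those with clear signal read higher in wild-type sildenafil than in wild-type vehicle on average, by 0.08 (Fzd8) to 0.36 (Fzd4), and none passed the test. The same sign held for all 12 members in the brighter 50% of genes, with a median of 0.20 and a range of 0.08 to 0.50, against 49.7% of all 9753 genes of that brightness, whose median was near 0. With array brightness as a covariate 10 of the 12 were above 0, with a median of 0.13. In Marfan lungs 7 of the 12 were above 0 (median 0.04; 9 and 0.09 without array 9), against 47.1% of all genes of that brightness.

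Fzd4 had no overlap between treatments in wild-type lungs: it ran from 8.55 to 8.85 (median 8.73) with vehicle and read 9.10, 9.19, 8.93 and 9.10 with sildenafil. It was the only one of the 39 genes whose wild-type groups did not overlap in that direction, as 1.42% of all genes did. In Marfan lungs it read 9.07, 8.56, 8.74, 8.82 and 8.74 with vehicle and 8.97, 7.99, 8.82, 8.91 and 9.00 with sildenafil, so the groups overlap, and array 9 was lowest. The wild-type difference was 0.36 ± 0.14 (limma adjusted p = 0.475), 0.36 ± 0.09 when array 9 did not enter the shared error (adjusted p = 0.161), and 0.20 with brightness as a covariate. Marfan minus wild-type under sildenafil was -0.34 ± 0.15 (adjusted p = 1.00) and -0.16 ± 0.10 without array 9.

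Fzd4 is best known in endothelium, and the endothelial markers moved alongside it. Their mean ran from 9.87 to 10.1 in wild-type vehicle and from 10.2 to 10.3 in wild-type sildenafil, with no overlap, from 9.88 to 10.3 in Marfan vehicle and from 9.02 to 10.2 in Marfan sildenafil. The part of endothelial content in the Fzd4 values was not tested.

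Fzd1, a receptor of the beta-catenin branch, was the only one of the 39 whose Marfan groups did not overlap between treatments in the upward direction, as 0.385% of all genes did. It read 7.60, 7.08, 7.50, 7.12 and 7.33 in Marfan vehicle and 7.87, 7.63, 7.66, 7.63 and 7.71 in Marfan sildenafil, where the lowest treated value is just above the highest vehicle value. In wild-type it ran from 7.08 to 7.95 (median 7.31) with vehicle and read 7.57, 7.65, 7.64 and 7.68 with sildenafil, inside the vehicle range. The difference was 0.38 ± 0.14 in Marfan lungs (limma adjusted p = 0.711), 0.21 in wild-type and 0.29 ± 0.10 averaged (adjusted p = 0.253); the difference between the genotypes was 0.17 (95% interval -0.24 to 0.58).

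Fzd2, a receptor linked to mesenchymal cells, read 8.00, 7.50, 7.89, 7.67 and 7.62 in Marfan vehicle and from 6.95 to 7.68 (median 7.41) in wild-type vehicle, so that 2 of the Marfan arrays lay above all wild-type arrays. With sildenafil it read 7.56, 7.49, 7.54 and 7.53 in wild-type and 7.77, 6.62, 7.44, 7.65 and 7.76 in Marfan lungs, with array 9 lowest. Marfan minus wild-type under vehicle was 0.37 ± 0.16 (limma adjusted p = 0.789) and 0.15 with brightness as a covariate. Fzd7, another receptor of the beta-catenin branch, read 7.73, 7.15, 7.63, 7.21 and 7.40 in Marfan vehicle and 7.58, 8.26, 7.41, 7.62 and 7.68 in Marfan sildenafil, with array 9 highest. In wild-type it ran from 6.84 to 7.46 (median 7.31) with vehicle and read 7.32, 7.59, 7.14 and 7.69 with sildenafil, and all groups overlap. Its averaged differences were 0.24 ± 0.11 for sildenafil (adjusted p = 0.426; 0.18 without array 9) and 0.23 ± 0.11 for genotype (adjusted p = 0.918; 0.17 without array 9).

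Of the remaining receptors, Fzd5, Fzd6 and Fzd8 reached an unadjusted p under 0.05 in no comparison. Fzd6 differed by 0.13 with sildenafil (95% interval -0.07 to 0.32) and by 0.01 between genotypes (-0.18 to 0.21), averaged over the other factor. Fzd8 differed by 0.01 in both (-0.20 to 0.22 each), and Fzd5, a receptor known from gut and eye, by 0.15 (-0.06 to 0.37) and 0.06 (-0.15 to 0.28). Fzd3, a receptor of axon guidance and polarity, averaged 5.60 in wild-type vehicle, 5.39 in wild-type sildenafil, 5.53 in Marfan vehicle and 5.16 in Marfan sildenafil, a sildenafil difference of -0.29 ± 0.14 (adjusted p = 0.453; -0.23 without array 9 and -0.46 with brightness as a covariate). Fzd9 and Fzd10 were among the genes at or under the highest background probe set on all arrays.

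**Figure D3:**
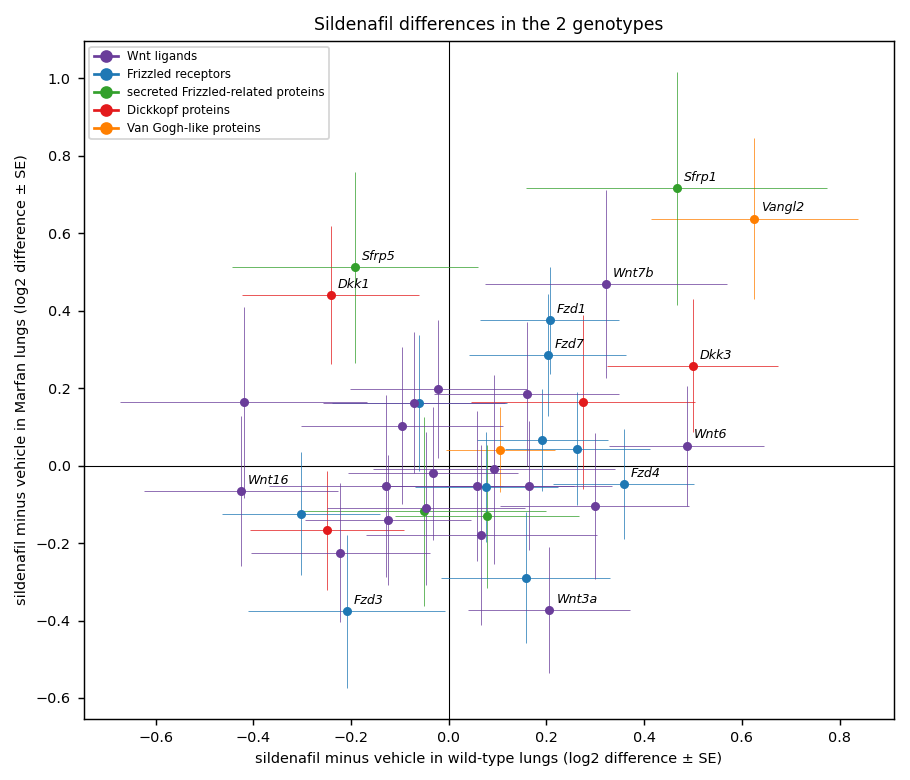
Log2 difference between sildenafil and vehicle in wild-type lungs (x axis) and in Marfan lungs (y axis) for each of the 39 genes, with standard errors from the shared fit; no array enters both axes. Vangl2 (0.62 and 0.64) and Sfrp1 (0.47 and 0.72, with array 9) lie in the upper right. Dkk1 (-0.24 and 0.44) and Wnt3a (0.21 and -0.37, with array 9) lie in opposite quadrants. The wild-type differences of Dkk1 and Wnt3a were not at an unadjusted p under 0.05, and the Marfan difference of Wnt3a was -0.19 without array 9.

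The secreted Frizzled-related proteins carry a Frizzled-like domain that binds Wnt ligands outside the cell. Of the 4 genes averaged over treatments, 3 (Sfrp1, Sfrp2 and Sfrp5) were higher in Marfan lungs at an unadjusted p under 0.05, a direction in which 2.8% of all genes reached that mark, and none passed after adjustment. Sfrp4 differed by -0.06 (95% interval -0.41 to 0.30). The same 3 were at that mark without array 9, with smaller differences for Sfrp1 and Sfrp5.

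Sfrp2, made mainly by fibroblasts, read 6.98, 7.35, 7.55, 7.59 and 7.46 in Marfan vehicle and from 6.40 to 7.50 (median 6.84) in wild-type vehicle. Only array 17 of the wild-type group reached the Marfan level; the other 5 lay below all Marfan vehicle arrays. With sildenafil it read 6.85, 6.67, 6.83 and 7.26 in wild-type and 7.50, 6.99, 6.88, 7.33 and 7.56 in Marfan lungs, which overlap. Marfan minus wild-type was 0.56 ± 0.18 under vehicle, a ratio of 1.47 (limma adjusted p = 0.785), and 0.46 ± 0.13 averaged over treatments, a ratio of 1.37 (adjusted p = 0.911). The vehicle difference ran from 0.48 without array 18 to 0.70 without array 17 and was 0.30 with brightness as a covariate. Sildenafil minus vehicle for Sfrp2 was 0.08 in wild-type and -0.13 in Marfan lungs. The mean of 13 fibroblast markers ran from 8.02 to 8.35 in wild-type vehicle and from 8.19 to 8.40 in Marfan vehicle; its part in the Sfrp2 values was not tested.

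Sfrp1, which is expressed in mesenchyme, ran from 5.47 to 6.44 (median 6.08) in wild-type vehicle and read 6.67, 6.66, 6.08 and 6.60 in wild-type sildenafil. It read 6.17, 6.49, 6.49, 6.36 and 6.42 in Marfan vehicle and 6.70, 8.85, 6.47, 7.00 and 6.48 in Marfan sildenafil. The value of 8.85 is array 9, and 3 of the 4 wild-type sildenafil arrays lay above all wild-type vehicle arrays. The averaged sildenafil difference was 0.59 ± 0.22 (limma adjusted p = 0.294) and 0.37 ± 0.12 without array 9 (adjusted p = 0.157), while that in Marfan lungs went from 0.72 ± 0.30 to 0.28 ± 0.18. The averaged genotype difference went from 0.48 ± 0.22 to 0.26 ± 0.12.

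Sfrp5, in contrast, was dim and exceeded the highest background probe set on no array. It read 4.09, 3.53, 3.28 and 3.38 in wild-type sildenafil and 3.65, 5.42, 4.36, 4.15 and 4.26 in Marfan sildenafil, with array 9 highest; array 8 lay among the wild-type values. With vehicle it ran from 3.39 to 4.43 (median 3.73) in wild-type and read 4.05, 3.92, 3.76, 3.89 and 3.65 in Marfan lungs. Marfan minus wild-type under sildenafil was 0.80 ± 0.26 (limma adjusted p = 1.00) and 0.53 ± 0.22 without array 9, and sildenafil minus vehicle in Marfan lungs 0.51 ± 0.25 and 0.25 ± 0.21. The averaged genotype difference was 0.44 ± 0.18 and 0.31 ± 0.15.

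The Dickkopf proteins Dkk1, Dkk2 and Dkk4 act on the co-receptors Lrp5 and Lrp6, and Dkk3 is a divergent member whose link to Wnt signals is debated. Dkk3 read 8.03, 8.11, 8.17 and 8.15 in wild-type sildenafil and from 6.99 to 8.23 (median 7.50) in wild-type vehicle. The vehicle arrays parted: arrays 13 and 14 read 8.09 and 8.23, and the other 4 read 7.50 or less. Arrays 13 and 14 were both low in Y-linked signal. They were also the brightest of their group before normalization, with medians of 5.79 and 5.83 against 5.32 to 5.75. In Marfan lungs it read 7.98, 7.65, 8.17, 7.65 and 7.92 with vehicle and 8.50, 7.95, 7.99, 8.04 and 8.18 with sildenafil, ranges that overlap. The sildenafil difference was 0.50 ± 0.17 in wild-type (limma adjusted p = 0.417) and 0.38 ± 0.12 averaged (adjusted p = 0.227). With the Y-linked level as a covariate they were 0.51 and 0.42, and with brightness 0.23 and 0.24.

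Dkk1 was dim, above the highest background probe set on no array, and gave the smallest p-value of the 39 genes for the interaction. It read 3.74, 3.61, 3.40, 3.20 and 3.59 in Marfan vehicle and 3.79, 4.27, 4.15, 3.72 and 3.82 in Marfan sildenafil, where only arrays 20 and 11 keep the groups from parting. In wild-type it ran from 3.63 to 4.26 (median 3.80) with vehicle and read 3.46, 3.22, 4.04 and 3.78 with sildenafil. The sildenafil difference was 0.44 ± 0.18 in Marfan and -0.24 in wild-type lungs, and the interaction 0.68 ± 0.25 (limma adjusted p = 0.984). The interaction was 0.60 ± 0.26 without array 9 and 0.35 with brightness as a covariate. With that covariate the Marfan difference was 0.47, larger than the interaction, so the signs were no longer opposite. The wild-type difference was not at an unadjusted p under 0.05. Marfan minus wild-type under vehicle was -0.36 ± 0.17 and -0.01 with brightness as a covariate. Dkk2 and Dkk4 had averaged sildenafil differences of 0.22 (95% interval -0.11 to 0.55) and -0.21 (-0.43 to 0.02).

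Vangl2 had the smallest p-value of the 39 genes in any comparison, for sildenafil averaged over genotypes. It read 4.72, 5.05, 5.11 and 5.16 in wild-type sildenafil and from 3.71 to 4.93 (median 4.35) in wild-type vehicle, where arrays 17 and 18 read 4.86 and 4.93 and the other 4 at most 4.52. In Marfan lungs it read 4.71, 4.32, 4.44, 4.34 and 4.85 with vehicle and 5.15, 4.69, 5.24, 5.34 and 5.42 with sildenafil. Of the 9 treated arrays only arrays 1 and 9 lay within the range of the vehicle arrays of their genotype.

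The sildenafil difference of Vangl2 was 0.62 ± 0.21 in wild-type lungs (limma adjusted p = 0.397) and 0.64 ± 0.21 in Marfan lungs (adjusted p = 0.677), and the difference between them was 0.01 (95% interval -0.60 to 0.62). Averaged it was 0.63 ± 0.15, a ratio of 1.55 (interval 0.33 to 0.94; unadjusted p = 0.000262, adjusted p = 0.116). Without array 9 it was 0.69 ± 0.15, and the adjusted p of 0.0344 passed the threshold, as 1 of the 39 genes and 0.379% of all genes did; limma's array weights, which count array 9 least, gave 0.70 and an adjusted p of 0.0275. Over all settings the adjusted p ran from 0.0275 to 0.365, and with brightness as a covariate the difference was 0.72. The signal of Vangl2 exceeded the highest background probe set on only 2 of 20 arrays, so most of its values lay among those of background probe sets. Its paralogue Vangl1, with a clear signal, differed by 0.07 (95% interval -0.09 to 0.23).

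**Figure D4:**
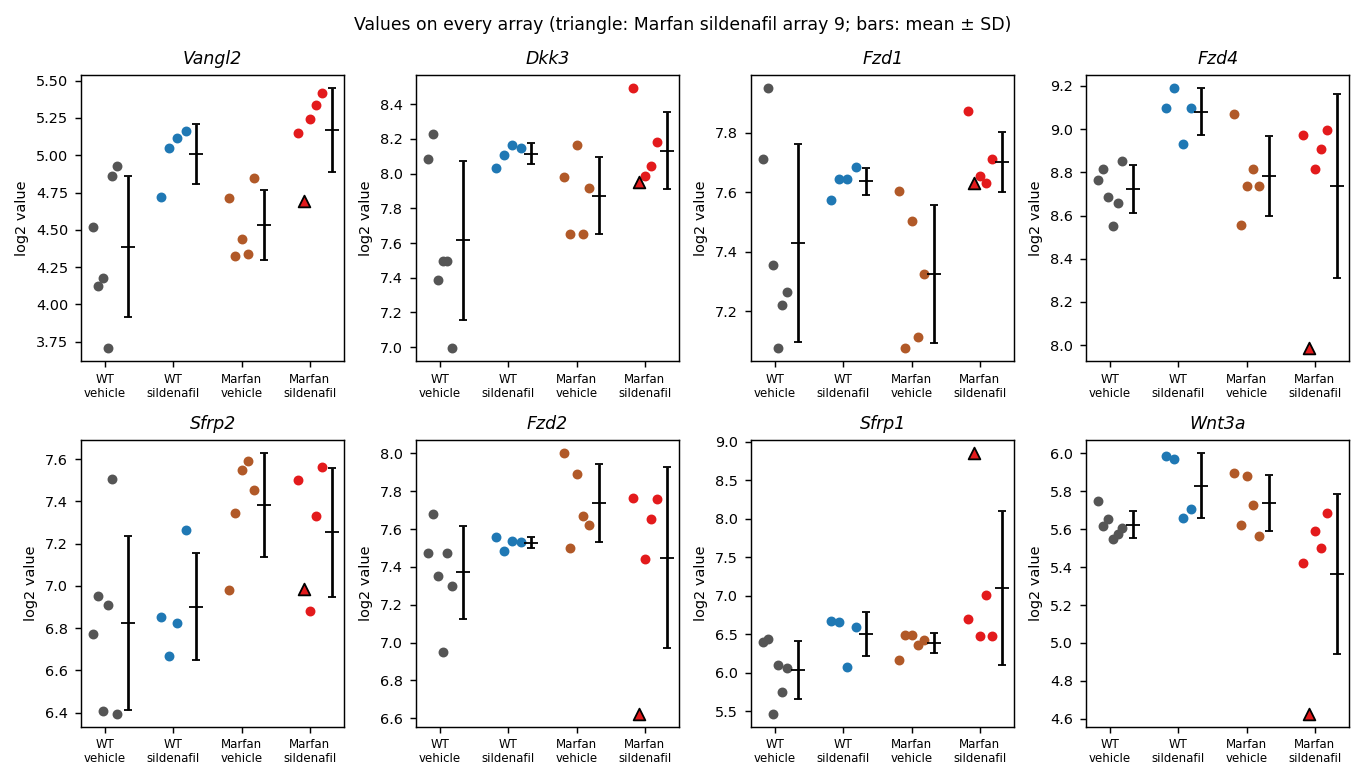
Log2 values of 8 of the genes on all 20 arrays by group (WT, wild-type; axes differ between panels and do not start at 0), with the group mean ± SD beside the points and Marfan sildenafil array 9 as a triangle. Vangl2 lies higher in both sildenafil groups and Fzd4 in the wild-type one, Sfrp2 lies higher in Marfan vehicle than in wild-type vehicle, and array 9 is the extreme point of Fzd4, Fzd2, Sfrp1 and Wnt3a.

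Genes of the pathway beyond the 39 were listed by role: 71 genes, of which 64 were measured (Ccnd1, Ctnnb1, Dvl2, Prickle3, Prickle4, Rnf43 and Tcf7 were not analysed here). None of the 64 passed an adjusted p of 0.05 in any comparison. At an unadjusted p under 0.05, 11 were higher and 0 lower with sildenafil averaged over genotypes, against 5.17% of all genes higher and 5.73% lower. In wild-type lungs 9 were higher and 0 lower with sildenafil, against 4.65% and 4.45% of all genes, and in Marfan lungs 4 and 0, against 3.29% and 3.41%. Between genotypes 7 were higher and 0 lower in Marfan lungs under vehicle, against 3.48% and 2.78% of all genes, and 1 higher and 2 lower under sildenafil, against 1.87% and 2.03%. Without array 9 that last comparison had 0 higher and 0 lower, and averaged sildenafil 12 and 0. Sildenafil in wild-type then had 11 and 1, sildenafil in Marfan lungs 4 and 0, and genotype under vehicle 8 and 1. In the same order 3.22%, 13%, 11.1%, 6.87% and 7.81% of all genes were at that mark without array 9, both directions together. The averaged sildenafil difference was above 0 for 46 of the 64, against 49% of all genes, with a median of 0.05.

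Dvl3 is a Dishevelled protein that relays the signal from Frizzled in both branches. Its adjusted p for averaged sildenafil equalled the lowest of all genes. Several genes can share such a value after this adjustment, so it does not rank Dvl3 first. Dvl3 ran from 7.09 to 7.52 (median 7.33) in wild-type vehicle. It read 7.83, 7.94, 7.41 and 7.68 in wild-type sildenafil, with array 5 inside the vehicle range. In Marfan lungs it read 7.70, 7.29, 7.77, 7.49 and 7.53 with vehicle and 8.18, 8.01, 7.75, 7.84 and 8.10 with sildenafil; array 10 lay just below the highest vehicle array. The difference was 0.40 ± 0.12 in wild-type, 0.42 ± 0.12 in Marfan and 0.41 ± 0.09 averaged (limma adjusted p = 0.0935). It passed without array 9 (0.41, adjusted p = 0.0363), without array 10 (0.44, adjusted p = 0.0462) and with array weights (0.40, adjusted p = 0.0313). With brightness as a covariate it was 0.40.

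Prickle1, a cytoplasmic partner of Vangl2 in planar polarity, ran from 8.21 to 8.80 (median 8.53) in wild-type vehicle and read 9.22, 9.10, 8.94 and 9.06 in wild-type sildenafil, all above the vehicle arrays. In Marfan sildenafil it read 8.89, 7.74, 8.72, 8.98 and 8.90, with array 9 lowest, against 8.50, 8.35, 8.81, 8.50 and 8.91 in Marfan vehicle. Its averaged sildenafil difference was 0.31 ± 0.13 (limma adjusted p = 0.354) and 0.42 ± 0.08 without array 9, where the adjusted p of 0.0309 passed; with brightness as a covariate it was 0.08. Dvl3 and Prickle1 were the only ones of the 64 that passed in that setting. Of the 10 measured polarity genes outside the 39, 7 had a positive averaged difference, against 49% of all genes, and 1 (Prickle1) reached an unadjusted p under 0.05, against 10.9%.

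In the other roles, the nuclear partners Bcl9 and Bcl9l, which bridge beta-catenin to the transcription machinery, had averaged sildenafil differences of 0.33 ± 0.09 (limma adjusted p = 0.168) and 0.30 ± 0.10 (adjusted p = 0.262). With brightness as a covariate they were 0.20 and 0.16. The TCF factor Tcf7l2 had 0.25 ± 0.10. The kinases Gsk3b and Gsk3a and the tankyrase Tnks of the destruction complex had 0.16 ± 0.06, 0.17 ± 0.08 and 0.18 ± 0.08. The co-receptor Lrp5 read higher in wild-type sildenafil than in wild-type vehicle by 0.45 ± 0.15 (0.30 with brightness as a covariate), with an interaction of -0.56 ± 0.21, and the receptor-like Ptk7 higher in Marfan than in wild-type vehicle by 0.36 ± 0.13, with an interaction of -0.49 ± 0.19; neither passed after adjustment. The polarity cadherin Celsr1 differed by 0.45 ± 0.18 between genotypes under vehicle, by 0.25 without array 18 and by 0.16 with brightness as a covariate. Of 14 measured target genes of beta-catenin, 1 reached an unadjusted p under 0.05 with sildenafil averaged over genotypes, as 10.9% of all genes did. This was the adhesion receptor Cd44, at 0.24 and at 0.13 without array 9. Mmp7, a matrix protease, differed by 1.24 ± 0.58 between sildenafil and vehicle in Marfan lungs, and by 0.30 without array 9. Rspo4 and Notum read higher in Marfan than in wild-type vehicle by 0.56 ± 0.21 and 0.51 ± 0.24 (0.29 and 0.27 with brightness as a covariate). Averaged over treatments, Marfan minus wild-type was -0.32 ± 0.15 for Sost, -0.25 ± 0.12 for Rspo3 and -0.23 ± 0.10 for Nkd1. The receptor Ror1 had an averaged sildenafil difference of 0.25 ± 0.10. None of these passed after adjustment. Rspo4, Notum, Sost and Rspo3 were dim, with means from 4.26 to 4.47, and Mmp7 was dimmer still, with a mean of 3.17.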

How the data were processed

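Per the labels' protocols, total RNA from lung was extracted with QIAzol and RNeasy columns, RNA with an integrity number above 8.5 was kept, and 700 pg of it went into the GeneChip Pico kit, which amplifies the RNA and labels it with biotin. The deposited log2 values were made by the authors with Affymetrix Expression Console and RMA (background correction, normalization and summary of probes), per the submitters' processing notes; neither the versions nor the genome build are given in the sources used here. Arrays have no read depth, and their number limits the precision.

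Of 29129 table entries, 6923 controls were left out; 19572 of 22206 transcript probe sets have 1 gene symbol in the platform annotation, 0 several and 2634 none. The 4 arrays titled as failing quality control hold no values. The deposited array medians differed, so the 20 arrays were quantile-normalized and the probe set with the highest mean was kept for each gene. The 4 groups were fitted together (16 residual degrees of freedom) with limma 3.58.1 in R 4.3.3, using lmFit and eBayes with a variance trend. Two-sided p-values were adjusted over all genes of each comparison by the Benjamini-Hochberg method, and intervals are 95%. The code was tested on simulated data.

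The genes, the pathway and marker lists and the tests were chosen with earlier results of these data known. Values on every array were given for the 14 genes with the smallest unadjusted p under 0.05 in any comparison, group means for the 6 brightest, and up to 3 genes of each pathway list by smallest unadjusted p; Dvl3 and Prickle1 were given on every array after their values were seen. Alternatives were other normalizations, probe set averages, a brightness filter, array weights, no variance trend, brightness and Y-linked covariates, fits of only the groups compared, and leaving out each array.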

Additional observations from a re-analysis of the deposited data

Results flagged for a closer look

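Over the 39 genes, 156 groups of 4 to 6 arrays were screened for a single array far from the rest of its group, and 11 were found; chance alone gives about 1 in 20. Of the 11, 6 were Marfan sildenafil array 9. It was lowest for Wnt3a (4.63, next 5.42), Wnt11 (4.93, next 5.78), Fzd2 (6.62, next 7.44) and Fzd4 (7.99, next 8.82), and highest for Sfrp1 (8.85, next 7.00) and Wnt10a (4.62, next 4.14).

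The other 5 fell on 5 arrays. Wild-type vehicle array 16 read 6.06 for Fzd5, with the next at 6.58, and wild-type vehicle array 18 read 3.14 for Fzd10, with the next at 3.67. Wild-type sildenafil array 1 read 3.91 for Fzd10, with the next at 3.53, and array 5 read 6.08 for Sfrp1, with the next at 6.60. Marfan vehicle array 22 read 4.97 for Fzd9, with the next at 4.58. Fzd9 and Fzd10 were dim on all arrays.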

How the results depend on the processing

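Only the 33 member differences at an unadjusted p under 0.05 were recomputed under the alternatives, which gave 924 values. Differences chosen in that way lie away from 0, so a kept direction says little about the other differences. None of the 33 passed an adjusted p of 0.05 in the fit reported, so keeping that side means only still not passing. Sizes could fall all the same: Dkk1 between genotypes under vehicle went from -0.36 to -0.01 with brightness as a covariate. Of the 924 values, 922 kept their direction and their side of the threshold, and none reversed. The other 2 were Vangl2 under sildenafil averaged over genotypes. The number of the 39 genes past an adjusted p of 0.05 in that comparison was 0, became 1 with array weights, and ranged from 0 to 1 when each array was left out in turn (1 without Marfan sildenafil array 9); the cause was not tested. The median difference of the 39 genes moved with the scale. With no normalization between arrays it was 0.32 for genotype under vehicle, 0.42 for sildenafil in wild-type, -0.22 for the interaction, 0.17 for averaged genotype and 0.20 for averaged sildenafil, where the medians of all genes were 0.25, 0.28, -0.24, 0.13 and 0.16. With median centring it was -0.058 for genotype under vehicle and 0.14 for the interaction, where the medians of all genes were -0.13 and 0.13. Over the 12 genes in the brighter 50% it was 0.20 for sildenafil in wild-type, -0.17 for the interaction and 0.14 for averaged sildenafil. The count of all genes at an unadjusted p under 0.05 was 1774 for sildenafil in wild-type, 5324 without normalization, 3117 with median centring and 1076 with brightness as a covariate; for genotype under vehicle it was 1221, 4534, 3076 and 1410. Genes past an adjusted p of 0.05 for averaged sildenafil numbered 74 without array 9, 25 without Marfan sildenafil array 10 and 68 with array weights, against 0 in the fit reported. No paired analysis was possible because the groups share no replicate numbers. The running numbers follow the groups, so processing order and group cannot be told apart, and signals near background limit most Wnt genes.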
